A study of Mus musculus with 26 samples.

Results

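The collagen genes were the 40 genes, of 21031 in the deposited normalized table, whose symbol reads Col, a number, a and a number with no suffix. They were followed in mesenteric arteries, the small arteries that feed the gut, from mice that lacked pannexin 1 or carried 1 changed residue of it. The count table, which lists 57010 genes, also holds Col24a1, Col25a1, Col26a1 and Col6a4, at 4, 36, 45 and 45 counts over all libraries. These 4 were under the total of 50 counts above which the normalized table keeps a gene, and were not members.

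A collagen molecule is a triple helix of chains, and some molecules combine chains from different genes. Collagens I and III, with small amounts of collagen V, form the fibrils that bear load in the outer coat and between the muscle cells of an artery. Collagen IV forms the network of the basement membrane under endothelium and around smooth muscle, collagen VI forms beaded filaments, and the fibril-associated collagens sit on the surface of fibrils. Fibroblasts are the main source of fibrillar collagen in the vessel wall, and smooth muscle, endothelial and Schwann cells make basement membrane collagens.

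Pannexin 1, encoded by Panx1, forms plasma membrane channels that release ATP, and the study compared mutants in which a residue that can be phosphorylated was replaced. All 26 libraries came from polyA RNA of male mice aged 8 weeks. The 8 groups were 3 WT and 3 Panx1 KO libraries, 3 libraries of the genotype labelled Y198F+/+ with 3 controls labelled Y198F-/-, 4 labelled S205A+/+ with 4 controls labelled S205A-/-, and 3 labelled Y308F+/+ with 3 controls labelled Y308F-/-. The S205A change puts alanine in place of a serine, and Y198F and Y308F put phenylalanine in place of a tyrosine. The knockout was global, and the controls were described as littermate or WT animals. The design text gives 3 vascular trees per genotype, while both S205A groups hold 4 libraries, and each library was counted as labelled. P-values measure the spread between these libraries, part of which may be technical.

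Total counts ran from 14.9 to 23.6 M (mega-counts) per library. Panx1 lay between 3.38 and 4.96 CPM (counts scaled to a common library total, with TMM factors over the 26 libraries) in WT and between 0.582 and 1.36 CPM in the knockout. S205A control 1, at 0.830 CPM, lay inside the knockout range. The first principal component separated 9 libraries whose library number begins with 22 (40.4 to 86.3) from the other 17 (−49.7 to −14.6). Called the 22 series here, they comprised every Y198F mutant, 3 S205A controls (all but control 4) and 3 S205A mutants (all but mutant 1). The labels do not say what this number means.

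Collagen transcripts took between 0.801% and 1.73% of all counts per library, and 5 genes held 62.1% of the collagen counts. Per kilobase of canonical transcript, the highest levels over the 13 control libraries were those of Col18a1, a basement membrane multiplexin, at 303 ± 73.8 CPM per kb (SD, n = 13), and of Col4a1, at 268 ± 54.4. Col3a1, the single chain of collagen III, followed at 247 ± 94.5 CPM per kb, then Col4a2 at 210 ± 46.3, the collagen I chains Col1a2 at 167 ± 58.4 and Col1a1 at 148 ± 47.5, and Col6a1 at 119 ± 27.7. These were the 7 members with a control median over 100 CPM per kb. A median over 10 CPM per kb was reached by 19 members, and 14 members stayed under 1. The ranges over the 13 libraries overlapped for all 39 neighbouring pairs in this order. Compared within each library, the higher of the pair was above its neighbour in all 13 for 3 pairs, Col6a1 above Col6a2, Col13a1 above Col6a3 and Col27a1 above Col28a1, and the order of the other 36 varied between libraries. The lowest 5 were Col9a1, Col6a5, Col2a1, Col22a1 and Col10a1, of which Col2a1, Col9a1 and Col10a1 encode cartilage collagens. The summed level of the chondrocyte and bone markers was 2.71 to 6.28 CPM in the S205A line.

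**Figure D1:**
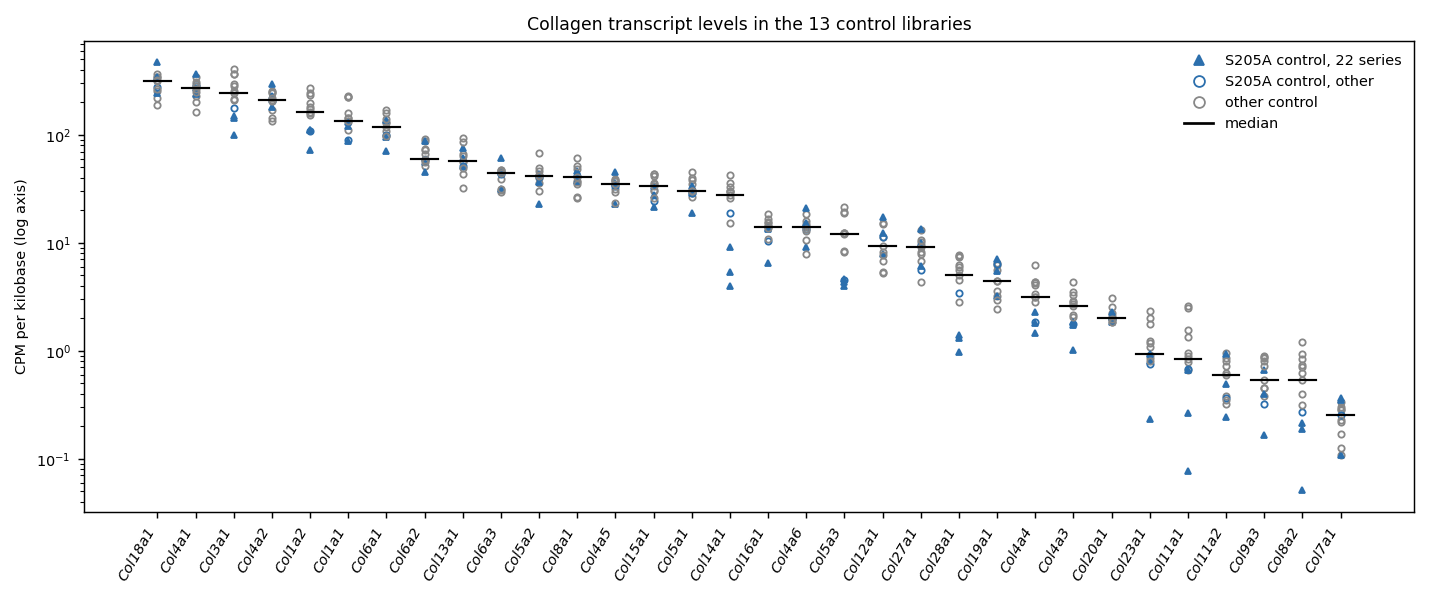
Levels of 32 collagen genes per kilobase of canonical transcript in the 13 control libraries, on a log axis in CPM per kb, with each library as a point (S205A controls in blue) and the order set by the median. Basement membrane chains and the chains of collagens I and III lead, and the ranges of all neighbours in the order overlap.

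In the S205A line Col5a3 and the chains of collagens I and III were the members with the smallest p-values, and their mutant and control levels did not overlap. Col1a1, Col1a2, Col3a1 and Col5a3 stood at 2.42, 2.51, 2.33 and 2.60 times the mean of their controls, and Col15a1 at 1.72 times. By edgeR's quasi-likelihood test with Benjamini-Hochberg adjustment over all genes, 0 of 33 tested members passed an adjusted p of 0.05, and 0% of the 15709 genes tested did. In the authors' deposited table, a DESeq2 fit of all 26 libraries, 7 of 39 members passed (Col1a1, Col1a2, Col3a1, Col5a3, Col4a4, Col28a1 and Col15a1) and all 7 were higher, beside 0.474% of all genes higher and 0.0206% lower. At an unadjusted edgeR p under 0.05, 13 of 33 members were higher and 0 lower, beside 2.23% and 0.637% of all genes. The fold change was above 0 for 32 of 33 members against 46.9% of all genes, and the median log2 fold change was 0.56 against −0.01. All mutants lay above all controls for 6 members, beside 1.16% of all genes, and below for 0, beside 0.649%. By class, 8 of 9 tested fibrillar chains had a fold change above 0 (median 0.64), as did 4 of 4 collagen VI chains (0.58) and 6 of 6 fibril-associated collagens (0.43). DESeq2 on these 8 libraries alone passed 5 of 35 members, beside 0.207% of all genes in either direction. With 1 library left out, DESeq2 over all 8 groups passed 2 of 40 members without mutant 3 (0.067% of all genes), 4 of 38 without mutant 1 (0.26%), 4 of 37 without control 2 (0.249%) and 12 of 39 without mutant 2 (0.873%). Collagens took 1.54% ± 0.241 of the counts in S205A mutants and 1.02% ± 0.186 in their controls (SD, n = 4 each), and the 2 ranges overlapped, at 1.23% to 1.73% and 0.801% to 1.25%.

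Col1a1 encodes the α1 chain of collagen I, of which a molecule holds a pair, and lies on chromosome 11 from 94827050 to 94843868 (plus strand, GRCm39, ENSMUSG00000001506). In S205A controls 1 to 4 it was at 779, 516, 713 and 532 CPM, and in mutants 1 to 4 at 1397, 928, 2181 and 1650.3 CPM. The lowest mutant lay above the highest control. On the log2 scale the mutants exceeded the controls by 1.28 (SE 0.260, 95% interval 0.77 to 1.79, edgeR adjusted p 0.933), and the authors' deposited table gives 1.27 with an adjusted p of 0.00116.

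Col1a2 encodes the α2 chain of collagen I and lies on chromosome 6 from 4504814 to 4541555 (plus strand, ENSMUSG00000029661). Its controls were at 589, 385, 593 and 583 CPM and its mutants at 1497, 700.2, 1914 and 1295 CPM. Control 2 was the low library of its group, and mutant 2 was the low library of its own, as it was for Col1a1. The groups did not overlap and differed by 1.33 on the log2 scale (SE 0.285, edgeR adjusted p 0.933), and the authors' deposited table gives 1.32 with an adjusted p of 0.000179, the smallest of any collagen there.

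Col3a1 lies on chromosome 1 from 45350698 to 45395840 (plus strand, ENSMUSG00000026043). It was at 825, 552, 797 and 992 CPM in the controls and at 2135, 1115, 2221 and 1898 CPM in the mutants. Mutant 2 lay just above control 4, and the other 3 mutants lay far above all controls. Their log2 difference was 1.22 (SE 0.251, edgeR adjusted p 0.933), and 1.21 with an adjusted p of 0.0013 in the authors' deposited table.

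Col5a3 encodes the α3 chain of collagen V and lies on chromosome 9 from 20681337 to 20726418 (minus strand, ENSMUSG00000004098). Its 4 controls lay close together at 28.4, 24.5, 26.8 and 28.1 CPM, and the mutants at 68.7, 52.5, 109 and 49.1 CPM. Every mutant was well above every control, and mutant 3 was the highest. The difference on the log2 scale was 1.38 (SE 0.237, 95% interval 0.91 to 1.84, edgeR adjusted p 0.933), with the smallest unadjusted edgeR p of the members, and the authors' deposited table gives 1.37 with an adjusted p of 0.00235.

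The other collagen V chains differed less from their controls. Col5a1 was at 305 ± 43.7 CPM in mutants and 233 ± 52.4 in controls, and Col5a2 at 306 ± 17.1 against 271 ± 67.9 (SD, n = 4). The groups overlapped for both, with log2 fold changes of 0.39 (SE 0.189) and 0.18 (SE 0.189), and neither passed the test. Col11a2, a minor fibrillar chain, was the 1 of the 33 tested members with a negative fold change, at −0.03 (SE 0.451). Of the 7 members that did not pass the low-count filter, the authors' deposited table gives negative values for Col22a1 (−0.64), Col17a1 (−0.42) and Col2a1 (−0.03).

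The promoters of 3 of these fibrillar genes and of the collagen IV pair are shown, the former because they carried the S205A difference and the latter because they lie head to head and share 78 bases. The windows run from 250 bases before to 50 after the RefSeq start, were taken from RefSeq's GRCm38.p6 table and were matched exactly to GRCm39, whose coordinates are given. Capitals mark CCAAT or its reverse complement ATTGG, the letters bound by the factor NF-Y.
Col1a2, chr6:4505368-4505667, plus strand: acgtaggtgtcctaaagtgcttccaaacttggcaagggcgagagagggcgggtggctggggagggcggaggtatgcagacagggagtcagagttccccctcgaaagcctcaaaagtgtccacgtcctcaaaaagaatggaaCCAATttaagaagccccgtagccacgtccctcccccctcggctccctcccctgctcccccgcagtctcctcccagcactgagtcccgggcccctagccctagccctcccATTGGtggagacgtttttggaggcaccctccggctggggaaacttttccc
Col3a1, chr1:45350448-45350747, plus strand: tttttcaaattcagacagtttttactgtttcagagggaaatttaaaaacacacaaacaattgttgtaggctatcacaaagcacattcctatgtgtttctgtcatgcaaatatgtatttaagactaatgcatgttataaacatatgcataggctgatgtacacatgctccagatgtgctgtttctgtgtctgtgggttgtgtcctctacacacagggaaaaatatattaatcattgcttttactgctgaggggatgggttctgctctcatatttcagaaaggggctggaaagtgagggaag
Col5a3, chr9:20726314-20726613, minus strand: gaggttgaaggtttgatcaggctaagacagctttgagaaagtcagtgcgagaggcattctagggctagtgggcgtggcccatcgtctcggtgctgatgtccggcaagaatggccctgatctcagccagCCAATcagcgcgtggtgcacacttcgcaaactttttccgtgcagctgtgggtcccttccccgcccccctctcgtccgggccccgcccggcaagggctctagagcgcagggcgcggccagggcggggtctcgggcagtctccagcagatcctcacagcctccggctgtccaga
Col4a1, chr8:11362777-11363076, minus strand: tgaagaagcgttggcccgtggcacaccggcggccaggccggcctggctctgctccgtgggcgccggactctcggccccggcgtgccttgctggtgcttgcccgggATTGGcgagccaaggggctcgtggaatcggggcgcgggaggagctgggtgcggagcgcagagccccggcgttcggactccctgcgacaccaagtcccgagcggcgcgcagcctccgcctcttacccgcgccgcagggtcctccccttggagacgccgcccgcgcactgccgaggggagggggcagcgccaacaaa
Col4a2, chr8:11362555-11362854, plus strand: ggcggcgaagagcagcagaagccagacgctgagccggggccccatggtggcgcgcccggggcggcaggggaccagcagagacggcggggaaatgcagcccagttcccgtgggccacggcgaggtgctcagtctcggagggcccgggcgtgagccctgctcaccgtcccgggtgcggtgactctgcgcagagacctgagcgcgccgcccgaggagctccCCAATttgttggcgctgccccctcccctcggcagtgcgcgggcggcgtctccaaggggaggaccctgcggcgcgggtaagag
Col1a2 held 2 such words, Col5a3, Col4a1 and Col4a2 held 1 each, and Col3a1 held 0. Of the 40 members, 32 matched the table with 35 entries. CCAAT on either strand stood in 11 of the 35 (31.4%) and in 37.4% of all 32851 promoters of the table. TATAAA, or TTTATA on the other strand, stood in 5 (14.3%) against 13.6%, Col3a1 among them. GGGCGG, or CCGCCC, the letters of a GC box, stood in 21 (60%) against 35.7%, Col1a2 and Col5a3 among them. A match is a description of the letters and does not show that a factor binds.

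**Figure D2:**
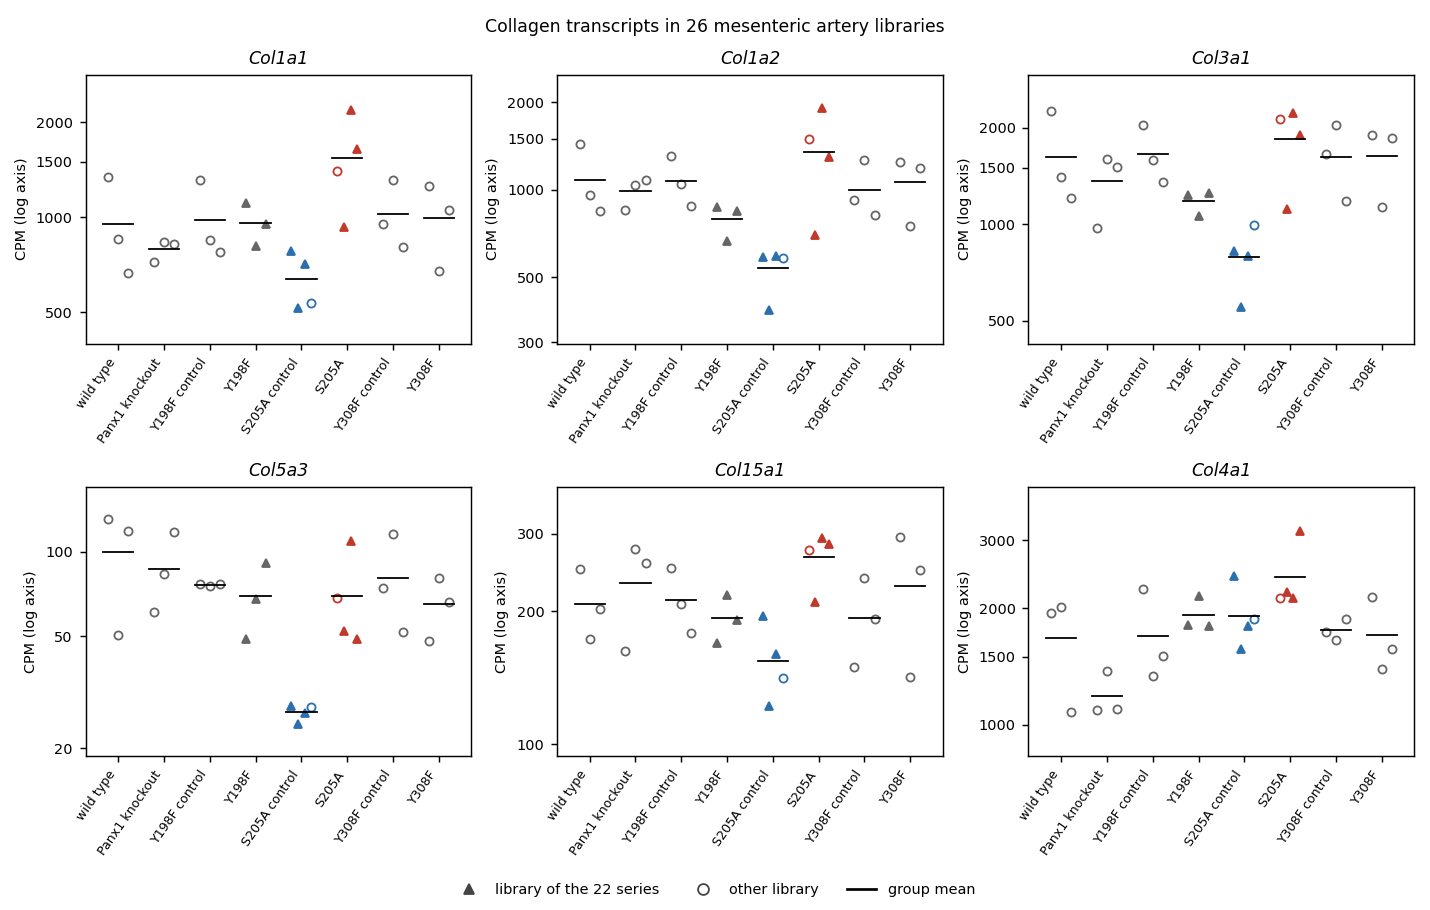
CPM of leading collagen genes in every library, by group, on a log axis, with the group mean as a line and 22-series libraries as triangles. S205A controls lie low for Col1a2, Col3a1 and Col5a3, and the S205A mutants lie above them.

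Col15a1 encodes the multiplexin of collagen XV, which joins basement membranes to fibrils. It was at 195, 122, 159.8 and 141 CPM in S205A controls and at 276, 210.3, 294 and 284 CPM in mutants, with no overlap. The log2 difference was 0.78 (SE 0.171, edgeR adjusted p 0.933), and the authors' deposited table gives an adjusted p of 0.0469. DESeq2 over all 8 groups kept this call without mutant 2 or control 1 and lost it without any other S205A library. Col18a1, its paralog, did not pass either test, and differed by 0.24 (SE 0.223) on the log2 scale, with mutants at 2204 ± 368 against 1860.3 ± 562 CPM.

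Of the basement membrane chains, all 6 had a fold change above 0 and a median of 0.33. Col4a1 and Col4a2, which form the ubiquitous collagen IV molecule, lie head to head on chromosome 8. Col4a1 spans 11248423 to 11362826 (minus strand) and Col4a2 spans 11362471 to 11499287 (plus strand). They overlap by 356 bases, and since the strand used in counting is not stated, reads in that stretch cannot be assigned. Col4a1 was at 2422, 1569, 1803 and 1875 CPM in S205A controls and at 2129, 2202, 2134 and 3179.9 CPM in mutants. The groups overlapped, with mutant 4 high and control 1 above 3 of the mutants, and the log2 fold change was 0.33 (SE 0.196). Col4a2 had the same pattern, with control 1 at 2013 CPM, mutant 4 at 2258 CPM and a log2 difference of 0.19 (SE 0.20).

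Col4a3 and Col4a4, chains of the collagen IV molecule known from kidney and lung basement membranes, also lie head to head and overlap by 159 bases. Col4a4 was at 14.9, 18.6, 23.7 and 19.2 CPM in controls and at 46.5, 21.2, 49.2 and 30.7 CPM in mutants. Mutant 2 lay inside the control range and the other 3 lay above it. The log2 fold change was 0.95 (SE 0.261), which passed in the authors' deposited table with an adjusted p of 0.0303 and did not pass by edgeR. DESeq2 on these 8 libraries alone did not pass it. DESeq2 over all 8 groups lost it without mutant 1, mutant 3, control 1 or control 2. Col4a3 was at 8.76, 15.8, 14.7 and 15.1 CPM against 34.3, 16.3, 28.8 and 19 CPM, without overlap, and gave 0.85 (SE 0.270), with an adjusted p of 0.0776 in the authors' deposited table.

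The collagen VI chains make the beaded filament, and their median log2 fold change in the S205A line was 0.58, with single chains on both sides of it. Col6a1 was at 559.6, 290.0, 395 and 410.1 CPM in controls and at 645, 428, 718 and 718 CPM in mutants. Mutant 2 lay below control 1, so the groups overlapped. Log2 fold changes were 0.60 (SE 0.229) for Col6a1, 0.56 (SE 0.228) for Col6a2 and 0.28 (SE 0.234) for Col6a3, and none passed. Col6a6, a low-count chain, was singled out after its values were seen: it had the largest log2 fold change of the 33 tested members, 2.13 with an SE of 0.970, at a mean of 1.36 against 0.306 CPM, and its groups overlapped. Col6a5, which did not pass the low-count filter, was at 0 counts in every S205A control and at 8, 3, 8 and 2 counts in the mutants.

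Among fibril-associated members Col14a1, which binds fibrils near their surface, was at 34.9, 25.7, 58.8 and 122 CPM in S205A controls and at 233, 76.1, 273 and 96.8 CPM in mutants. Control 4 lay above mutants 2 and 4. The log2 fold change was 1.48 (SE 0.564), and the adjusted p in the authors' deposited table was 0.0994. Col16a1 had a log2 fold change of 0.60 (SE 0.237) with overlapping groups. Col12a1 gave 0.13 (SE 0.262), at 204.9, 92.5, 147 and 135 CPM in controls and 141, 136, 126 and 233 CPM in mutants, with overlapping groups and mutant 4 high.

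Of the short-chain collagens, Col8a1, a product of smooth muscle and endothelium, was almost equal in both groups, at 222 ± 21.9 CPM in mutants and 214 ± 18.0 in controls (SD, n = 4). Its log2 fold change was 0.05, with a 95% interval from −0.19 to 0.29. Its partner Col8a2 was at 0.83, 0.941, 0.222 and 1.19 CPM in controls and 4.54, 0.458, 4.96 and 2.64 CPM in mutants. Mutant 2 lay inside the control range, and the log2 fold change of 1.98 (SE 0.715) did not pass. Col28a1, a collagen of peripheral nerve that Schwann cells make, was at 6.95, 4.82, 6.5 and 17 CPM in controls and 23.6, 14.4, 23.7 and 19.3 CPM in mutants, where control 4 lay above mutant 2. Its log2 fold change of 1.19 (SE 0.375) passed in the authors' deposited table with an adjusted p of 0.0375 and did not pass by edgeR. DESeq2 on these 8 libraries alone did not pass it. DESeq2 over all 8 groups kept it without mutant 2 or control 4 and lost it without any other S205A library.

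**Figure D3:**
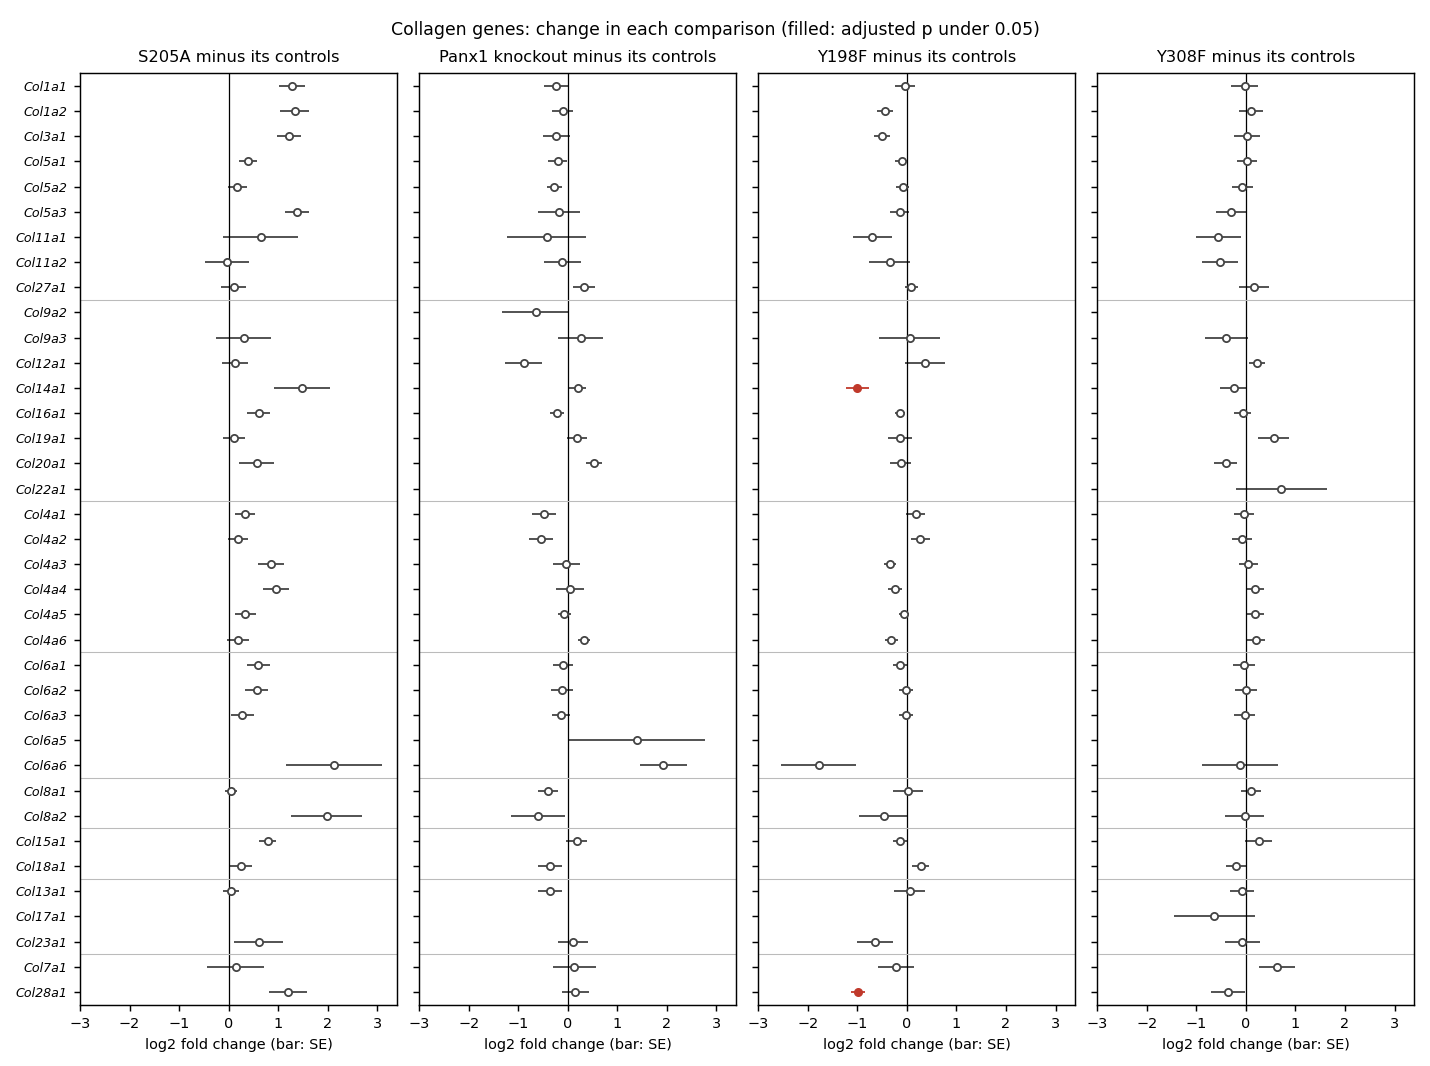
Log2 fold changes of the tested collagen genes in the 4 mutant lines, each with its standard error as a bar, grouped by class, with members past an adjusted p of 0.05 filled. In the S205A line 32 of 33 points lie above 0, with the chains of collagens I and III and Col5a3 near or above 1.2.

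Members of the S205A group did not vary as one. Of the 33 tested members, mutant 3 was the highest of the 4 mutant libraries for 18 and mutant 2 the lowest for 19. Within the 22 series alone, 3 mutants against 3 controls, the log2 fold changes were 1.25 (SE 0.326) for Col1a1, 1.32 (SE 0.372) for Col1a2, 1.27 (SE 0.292) for Col3a1, 1.41 (SE 0.319) for Col5a3 and 0.73 (SE 0.209) for Col15a1, and 0 members passed by edgeR, beside 0% of all genes. The median of the tested members was 0.38 there. Without S205A control 1, the library with the low Panx1 level, they were 1.39, 1.38, 1.24, 1.40 and 0.92 in the same order. Leaving out any 1 of the 8 libraries kept Col1a1 between 1.06 and 1.455, Col1a2 between 1.11 and 1.54, Col3a1 between 1.07 and 1.39 and Col5a3 between 1.07 and 1.52. The median over members ran from 0.27, without control 2, to 0.52, all below the 0.56 of the full 8 libraries.

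The S205A controls themselves were low for part of the set when laid beside the 9 control libraries of the other lines. For 6 of 33 tested members every S205A control lay below every other control, beside 1.61% of all genes, and for 0 members above, beside 0.503%. Col5a3 was at 24.5 to 28.4 CPM in S205A controls and at 50.6 to 131 CPM in the others, Col1a2 at 385 to 593 against 817 to 1438 CPM, and Col3a1 at 552 to 992 against 1180.3 to 2256 CPM. Col4a3, Col4a4 and Col8a2 were the remaining 3. The S205A mutants, by contrast, spanned values found elsewhere: Col5a3 was at 49.1 to 109 CPM in them and at 48.1 to 131 CPM in the 18 libraries of the other lines, and Col3a1 at 1115 to 2221 against 973 to 2256 CPM. For Col1a1 mutants 1, 3 and 4 were above all 18, and for Col1a2 mutants 1 and 3 were. No test was made between controls of different lines. Of the S205A controls, 3 of 4 belong to the 22 series and none of the other controls does, so line and series cannot be told apart in those 3. For Col14a1 and Col28a1, which were not among the 6 and were looked at after their values were seen, controls 1 to 3 lay below the controls of the other lines (98.8 to 274 and 13.9 to 38 CPM). Control 4, outside the series, lay inside those ranges, at 122 and 17 CPM.

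Markers of other cell types also differed in level between libraries of the S205A line. The summed level of 10 fibroblast markers was 534, 2464, 1576 and 2346 CPM in controls 1 to 4 and 2949.8, 1553, 3802 and 2038 CPM in mutants 1 to 4. Control 1 was low and the groups overlapped, while 9 of 10 markers had a fold change above 0, with a median of 1.27. Ly6a and Cd34, the largest parts of the sum in controls (means 569 and 467 CPM), gave −0.37 and 0.03. Dcn, Lum, Pdgfra and Fbln1, at 231, 31.2, 15.2 and 53.4 CPM in controls, gave 1.53, 1.82, 1.71 and 2.03, so the sum gives the last 3 little weight. For each of the 10 markers the groups overlapped. Lum, Dcn and Fbln1 are themselves matrix genes. The sum of 9 Schwann cell markers was 202, 139, 173 and 205.1 CPM in controls and 269, 318, 353 and 221 CPM in mutants, without overlap, and 8 of 9 had a fold change above 0. None of these markers passed by edgeR, while DESeq2 over all 8 groups passed the fibroblast markers Fbln1 (adjusted p 0.0244) and Lum (0.0481) and the Schwann cell markers Ngfr (0.0132), Sox10 (0.0149) and S100b (0.0448), all higher in mutants. The smooth muscle sum was 23847 to 44208 CPM in controls and 27776 to 36871 in mutants, with 2 of 9 fold changes above 0 and a median of −0.10. The endothelial sum was 1358 CPM in control 1 and 5273 to 11091 in the other controls, against 5011 to 6331 in mutants. Mesothelial markers summed to 2.49 to 9.60 CPM in controls and 0.838 to 20.1 in mutants. Adipocyte markers had 9 of 9 fold changes below 0 (median −0.47), with sums of 532 to 1448 CPM in controls and 843 to 1175 in mutants. Macrophage markers had 7 of 7 above 0 (0.32), with sums of 17.4 to 65.6 CPM against 9.74 to 86.1, and lymphoid markers 5 of 6 (0.62), with 2.33 to 20.3 CPM against 5.29 to 33.3. The sums of these 3 lists overlapped between the groups. The part of these cell types in the collagen differences was not tested, and in bulk tissue fewer cells of a type and less RNA per cell cannot be told apart.

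**Figure D4:**
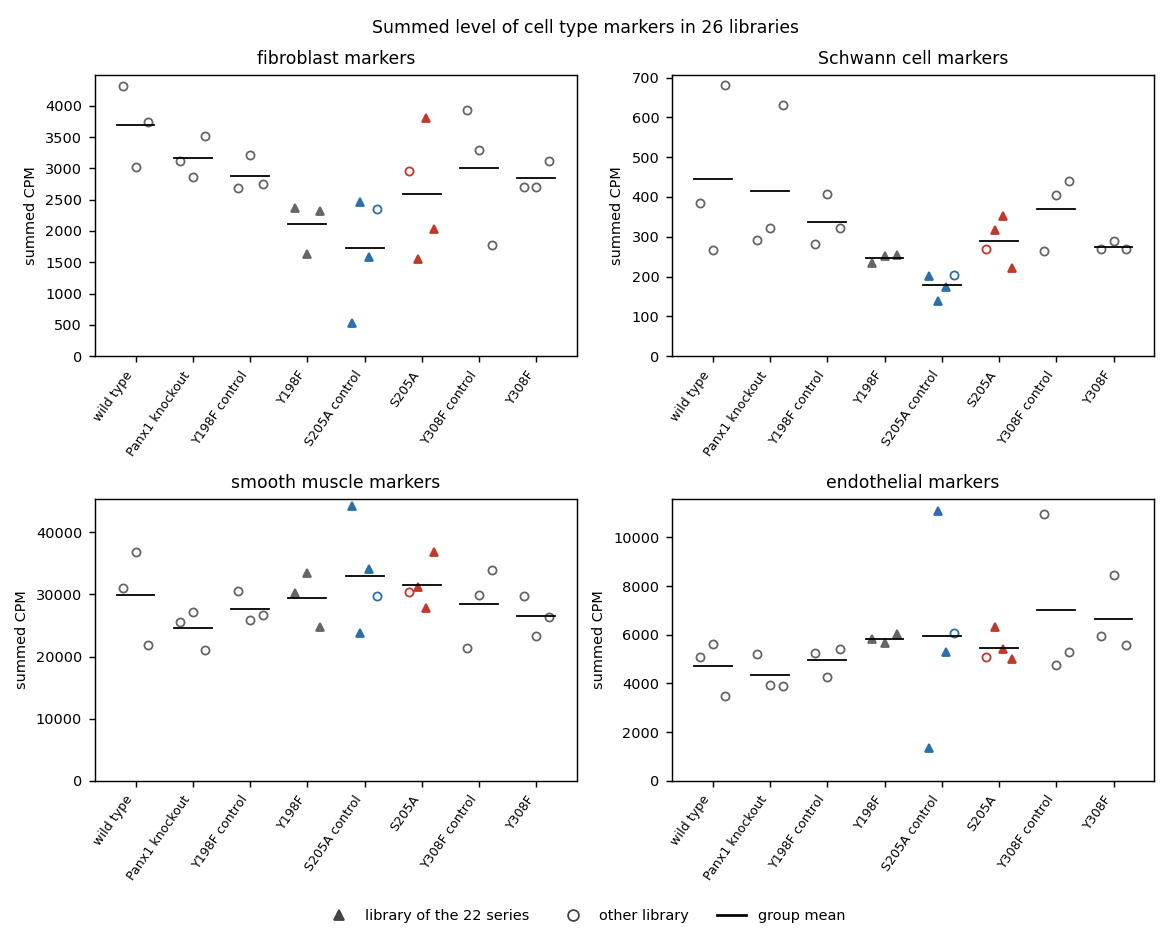
Summed CPM of the fibroblast, Schwann cell, smooth muscle and endothelial marker lists in each of the 26 libraries by group, with the group mean as a line and 22-series libraries as triangles. S205A control 1 is the lowest for fibroblast and endothelial markers, and Schwann cell sums of S205A mutants and their controls do not overlap.

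Genes that make, bind or sense collagen were read from the same fit, in which none of them passed. Of 24 tested genes for collagen synthesis and processing, 21 had a fold change above 0, with a median of 0.22. Adamts2, the protease that removes the amino-terminal propeptide of fibrillar collagens, was at 154 against 68.3 CPM (log2 fold change 1.17, SE 0.332). Pcolce, which speeds removal of the carboxy-terminal propeptide, gave 0.77 (SE 0.237), and the matrix glycoprotein Sparc 0.51 (SE 0.153). DESeq2 over all 8 groups passed Adamts2 and Pcolce, with adjusted p-values of 0.0168 and 0.0423, and not Sparc (0.0767).

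Of 10 collagen-binding proteoglycans and glycoproteins, 9 had a fold change above 0, with a median of 0.38. Fmod, a proteoglycan that regulates fibril assembly, was at 86.8 against 22.7 CPM (1.93, SE 0.594), and Lum gave 1.82 (SE 0.648) and Thbs2 0.53 (SE 0.184). DESeq2 over all 8 groups passed Fmod (adjusted p 0.0168) and Lum (0.0481). Of 8 collagen receptors 6 had a fold change above 0. They were led by Itga11, the α subunit of a fibroblast integrin for collagen I, at 56.0 against 32.4 CPM (0.79, SE 0.177), by Mrc2, the endocytic collagen receptor (1.54, SE 0.477; DESeq2 over all 8 groups adjusted p 0.00868), and by Itga2 (0.70, SE 0.287). The 16 TGF-beta signalling genes were split, with 9 above 0 and a median of 0.01, and the smallest p-values belonged to Tgfbr3 (0.18, SE 0.180), Smad3 (0.19, SE 0.209) and Tgfbr1 (0.14, SE 0.173).

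In the knockout, 0 of 35 tested collagens passed by edgeR, beside 0.0309% of all 16193 genes tested, 0.0124% higher and 0.0185% lower. In the authors' deposited table, and by DESeq2 over all 8 groups, 0 of 33 passed, beside 0.0268% of all genes higher and 0.107% lower. At an unadjusted p under 0.05, 3 (Col6a6, Col20a1 and Col4a6) were higher (5.3% of all genes) and 0 lower (5.92%). The fold change was above 0 for 13 of 35 members (50.8% of all genes) with a median of −0.11. Knockout libraries lay above WT without overlap for 3 members, beside 8.24% of all genes, and below for 0, beside 10.5%. Col6a6 was at 3.28, 9.16 and 8.4 CPM in the knockout and 2.69, 0.998 and 1.85 CPM in WT, without overlap. Its difference of 1.93 on the log2 scale (SE 0.470) had an edgeR adjusted p of 0.314. Col12a1 was at 66.5, 65.5 and 68.5 CPM in the knockout and at 134, 179.8 and 62.5 CPM in WT, where WT 3 lay below all knockouts (−0.89, SE 0.372). Col8a2 gave −0.60. Of 26 genes for collagen synthesis and processing tested there, 23 had a fold change below 0 and none passed, with a median of −0.13. Smooth muscle markers had 9 of 9 fold changes below 0 in the knockout (median −0.26) and adipocyte markers 9 of 9 (−1.49), while macrophage markers had 7 of 7 above 0 (0.46). None of these markers passed. The smooth muscle sums were 21089 to 27150.2 CPM in the knockout and 21933 to 36852 in WT, and the adipocyte sums 607 to 1322 against 1140.1 to 3737 CPM, with overlap for both. The part of these cell types in the collagen values was not tested. For the genes that led in S205A, the knockout values were −0.24 (SE 0.236) for Col1a1, −0.10 (SE 0.207) for Col1a2, −0.23 (SE 0.271) for Col3a1 and −0.17 (SE 0.429) for Col5a3. Col4a1 and Col4a2 gave −0.48 (SE 0.238) and −0.55 (SE 0.241).

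Between Y198F mutants and their labelled controls, 2 of 33 tested members passed by edgeR and both were lower, beside 5.48% of all genes lower, 9.55% higher and 15% in either direction, so the share of members that were lower was close to the background. Col28a1 was at 13, 15.5 and 14.4 CPM in mutants and 29.2, 24.7 and 31 CPM in controls, and Col14a1 at 117, 68.3 and 127 CPM against 180.0, 229.7 and 212 CPM. The groups did not overlap for either gene. The log2 fold changes were −0.99 (SE 0.140, edgeR adjusted p 0.0012) and −0.997 (SE 0.226, edgeR adjusted p 0.0248). All 3 Y198F mutants belong to the 22 series and none of these controls does, so line and series cannot be told apart in this comparison. Against the 3 S205A controls of the 22 series both genes had the opposite sign, 1.23 and 1.39, and neither passed. With the series as a term they were −0.06 (SE 0.456) and 0.18 (SE 0.587). Only the S205A line has libraries in and out of the series, so this term rests on its control 4 and mutant 1. It does not separate series from line in the Y198F comparison. Against the labelled controls DESeq2 over all 8 groups passed 1 member, Col6a5, at 3, 92 and 0 counts in controls and 0 in every mutant, so that control 2 alone held nearly all of its counts, beside 2.92% of all genes lower and 4.81% higher. By edgeR 1 member, Col28a1, passed without control 2 (10.2% of all genes in either direction) or without control 3 (5.43%), and 4 of 34 passed without control 1 (9.21%).

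Markers of other cell types moved in the same Y198F comparison. Schwann cell markers had 8 of 9 fold changes below 0 (median −0.82), and Cdh19, Mbp and S100b fell by 0.85, 0.85 and 0.89 on the log2 scale by edgeR. Their sum was 234 to 253 CPM in mutants and 283 to 407 in controls, without overlap. Fibroblast markers had 7 of 10 below 0 (median −0.75), of which Scara5 fell by 0.77, and their sum was 1638 to 2369 CPM in mutants and 2691 to 3206 in controls, also without overlap. Among endothelial markers 3 of 9 passed and were higher, and among smooth muscle markers 2 of 9 were higher and 1 lower. All these calls stand beside 1532 higher and 879 lower of the 16050 genes tested. The part of these cell types in the values of Col28a1 and Col14a1 was not tested.

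Over all tested members of the Y198F line, 8 of 33 had a fold change above 0 (49.7% of all genes) and the median was −0.14. Col3a1, Col1a2 and Col4a3 gave −0.50, −0.44 and −0.34, with edgeR adjusted p-values of 0.0574, 0.0919 and 0.0963. Col1a1 gave −0.04 (SE 0.207), Col5a3 −0.14 (SE 0.192) and Col11a1, a minor fibrillar chain, −0.70. Of 26 tested genes for collagen synthesis and processing 3 rose and 1 fell by edgeR: the lysyl hydroxylases Plod3 and Plod1 and the lysyl oxidase family member Loxl1 rose by 0.47, 0.42 and 0.47 on the log2 scale, and Loxl2, of the same family, fell by 0.52. These shares lie close to the 9.55% of all genes higher and 5.48% lower. Of 8 tested collagen receptors 1 rose and 1 fell, both discoidin domain receptors: Ddr1 rose by 0.48 and Ddr2 fell by 0.54. The authors' deposited table for Y198F agrees to within 0.000158 with a comparison to the S205A controls, not the labelled ones, so it shares its controls with the S205A comparison. In it 0 of 39 members passed, beside 0.0105% of all genes higher and 0.00527% lower, with Col5a3 at 1.36 (adjusted p 0.0515), Col1a1 at 0.58, Col3a1 at 0.57 and Col1a2 at 0.55.

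In the Y308F line, where no library belongs to the 22 series, 0 of 35 tested members passed by edgeR, beside 0% of all 16037 genes, and 0 of 40 in the authors' deposited table, also beside 0%. No member reached an unadjusted p under 0.05, beside 2.48% of all genes higher and 1.93% lower. The median was −0.03, the same as over all genes, with 15 of 35 above 0 (46%). Among members with a mean log2 CPM of at least 1, the largest by size were 0.63 (SE 0.364) for Col7a1, the anchoring fibril collagen, 0.56 (SE 0.306) for Col19a1 and −0.55 (SE 0.455) for Col11a1. Only Col7a1 had mutants above all controls without overlap, beside 4.91% of all genes, and 0 members had them below, beside 5.75%. Col1a1, Col1a2, Col3a1 and Col5a3 gave −0.03, 0.10, 0.02 and −0.30.

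The S205A effect was tested against each other line's effect in models of 4 groups, and 0 members passed in any of the 3 by edgeR, beside 0.00562%, 0% and 0% of all genes. At an unadjusted p under 0.05 the S205A effect was the higher for 12 of 38 members against the knockout (2.6% of all genes), 13 of 35 against Y198F (5.9%) and 8 of 36 against Y308F (1.69%). The difference for Col1a1 was 1.54 (SE 0.386), 1.31 (SE 0.371) and 1.28 (SE 0.396) on the log2 scale in that order. For Col3a1 it was 1.47 (SE 0.396), 1.71 (SE 0.338) and 1.18 (SE 0.386). Col5a3 gave 1.58 (SE 0.479), 1.51 (SE 0.342) and 1.65 (SE 0.409). The edgeR adjusted p-values of these 3 genes were 0.999 or above against the knockout and Y308F and 0.156 to 0.199 against Y198F. DESeq2 on the same groups passed 7 of 38 members in the test against Y198F, beside 2.01% of all genes in either direction. All Y198F mutants and none of their controls belong to the 22 series. DESeq2 over all 8 groups passed 10 of 39 members in that test (3.85% of all genes), and 0 of 40 with the series as a term (0.019%). That term was estimated within the S205A line only, from control 4 and mutant 1 outside the series. It does not separate series from line for Y198F. In the models of 4 groups DESeq2 passed 0 of 33 against Y308F (0.0705%) and 0 of 21 against the knockout (0.0952%), where only 3151 genes had an adjusted p.

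The ratio of Col1a1 to Col1a2 counts within a library separated the 22 series from all other libraries. It was 1.13 to 1.34 in the 9 libraries of the series (mean 1.25 ± 0.0797) and 0.756 to 1.04 in the other 17 (0.907 ± 0.0885), without overlap. In the S205A line, control 4 and mutant 1, the libraries outside the series, were at 0.913 and 0.933. Within the series the S205A mutants were at 1.25 ± 0.0959 and their controls at 1.29 ± 0.0749 (SD, n = 3). The ratio of Col4a1 to Col4a2 overlapped between the series, at 1.17 to 1.41 and 1.14 to 1.39, and that of Col3a1 to Col1a2 at 1.16 to 1.59 and 1.14 to 1.80. The ratio of Col6a1 to Col6a2 was lower in the 22 series, at 1.14 ± 0.0506 against 1.27 ± 0.0559 in the others. Its ranges, 1.08 to 1.22 and 1.18 to 1.38, overlapped. In the S205A line the Col4a1 to Col4a2 ratio was 1.37 ± 0.0279 in mutants and 1.25 ± 0.0807 in controls (SD, n = 4), a difference noticed after the values were seen and not tested. In the Y198F line, the comparison that sets the 22 series against other libraries throughout, Col1a1 and Col1a2 gave log2 fold changes of −0.04 and −0.44.

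**Figure D5:**
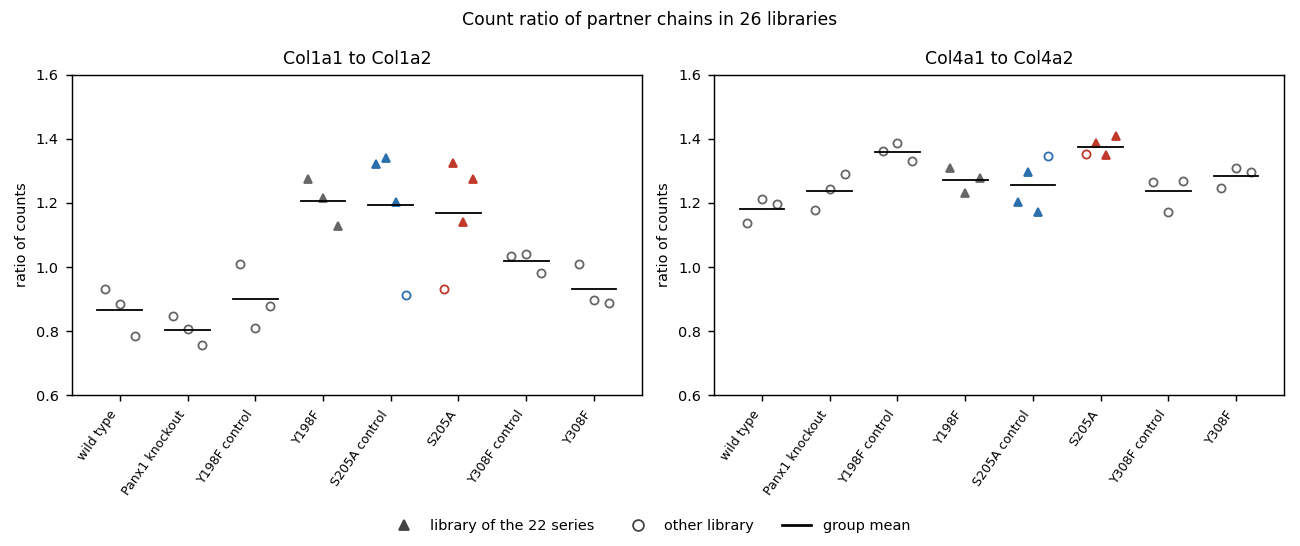
Ratios of Col1a1 to Col1a2 counts and of Col4a1 to Col4a2 counts within each library, by group, with the group mean as a line and the 22-series libraries as triangles. The ratio of Col1a1 to Col1a2 is 1.13 to 1.34 in the 9 libraries of the series and 0.756 to 1.04 in the other 17.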

How the data were processed

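Per the labels' protocols, polyA RNA was read in pairs of 150 bases, mapped by the authors to GRCm39 with STAR 2.7.9a and counted per gene with featureCounts of Rsubread 2.20.0. The annotation release and the strand setting are not given in the sources used here. The deposited count table holds whole, unnormalized counts. The deposited normalized table holds a signal, counts divided by 1 size factor per library. The authors also deposited comparison tables from DESeq2 1.46.0, with log2 fold changes, a test score and p-values.

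From the counts, each mutant was tested against its labelled controls with edgeR 4.0.16 in R 4.3.3 (quasi-likelihood, TMM, filterByExpr, robust) on the libraries of that comparison only. P-values were adjusted by Benjamini-Hochberg over all genes tested, with a threshold of 0.05. The filter left 35, 33, 33 and 35 of the 40 members in the knockout, Y198F, S205A and Y308F comparisons. Col2a1, Col9a1 and Col10a1 passed in none, and the others left out somewhere were Col6a5, Col9a2, Col17a1 and Col22a1. Standard errors come from the fold change and its statistic, and 95% intervals from the standard error. CPM per library uses TMM over all 26 libraries, and the principal components used a prior count of 2. Class medians and counts describe a list and are not tests.

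Members and lists were chosen with earlier results of these data known. Named genes were those past the threshold, 17 set collagens in the S205A line and the 3 members with the largest fold change per comparison at a mean log2 CPM of at least 1. Col4a3, Col4a4, Col6a6, Col11a2 and Col28a1 in the S205A line, and Col1a1 to Col5a3 in the other lines, were added after their values were seen. Replicate numbers were not taken as pairs. Alternatives were DESeq2 1.42.0, its size factors, leaving out the low-count filter, a joint fit of the 8 groups, a replicate block, the library series and each library left out. Added after seeing the data were DESeq2 with the series as a term and DESeq2 with each S205A library left out. The pipeline was tested on simulated counts, where recovery of changed genes was required at a small spread only, not at that of these libraries. Promoters and positions come from RefSeq and GENCODE annotation.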

Additional observations from a re-analysis of the deposited data

Results flagged for a closer look

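In 4 of 36 sets examined, each 1 gene in 1 group of 4 of the S205A line, 1 library stood far from its 3 fellows by Dixon's criterion at the 95% level, which chance alone meets in about 1 in 20 groups. The sets share libraries, and 3 of the 4 cases are the same library. S205A mutant 4 was at 233 CPM for Col12a1, where the next library was at 141. It was also at 3179.9 CPM for Col4a1 and 2258 CPM for Col4a2, where the next were at 2202 and 1588. S205A control 2 was at 385 CPM for Col1a2, where the next control was at 583.

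For 3 members every Y198F library lay below its labelled controls while every S205A library lay above its own. Of the 14463 genes with at least 500 counts in all, 33 of them members, 0.242% showed this pattern and 0.0761% the opposite one. Col1a2 gave log2 fold changes of −0.44 and 1.33, Col3a1 −0.50 and 1.22, and Col4a3 −0.34 and 0.85, in the Y198F and S205A lines. The difference between the 2 effects did not pass for any of them by edgeR, with adjusted p-values of 0.156 to 0.199. All Y198F mutants are in the 22 series and none of their controls is, and the part of the series in this contrast cannot be told apart from that of the line.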

How the results depend on the processing

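Of 797 fold changes of single collagens recomputed under the alternatives, 703 kept their direction and their side of the threshold, 71 newly passed, 9 no longer passed and 14 changed sign. In the S205A line the median was above 0 in all 26 alternatives. The count past the threshold was 0 by edgeR throughout, also with each library left out (0 to 0), 5 by DESeq2 on these libraries (0.207% of all genes passed in either direction), 7 by DESeq2 over all 8 groups (0.495%) and 8 with the series as a term there (0.722%). With each S205A library left out, DESeq2 over all 8 groups passed 2 (without S205A 3, 0.067% of all genes) to 12 (without S205A 2, 0.873%). The sign changed for Col12a1, at −0.040 and −0.032 without control 2 and −0.10 and −0.11 without S205A 4 (edgeR and DESeq2), in an edgeR range with each library left out up to 0.35. It also changed for Col8a1, with a highest value of 0.10 in that range, at −0.012 in the 22 series only, −0.0072 and −0.0011 without control 2, and −0.0079 and −0.011 without S205A 1. For S205A minus Y198F, DESeq2 passed 7 (2.01% of all genes), DESeq2 over all 8 groups 10 (3.85%), the same with the series as a term 0 (0.019%) and edgeR without a filter 1 (0.118%). The series term was estimated within the S205A line only. Leaving out a library gave 0 to 5, with 5 without S205A control 4 (5.14%) and 2 without S205A 2 (0.138%).

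In the Y198F line the 2 calls became 4 of 34 by DESeq2 (17.4% of all genes), 7 of 40 without a filter (11%), 0 with all 8 groups in one fit (4.93%), 1 by DESeq2 over all 8 groups (7.73%), 0 with the series as a term by edgeR (0%) and 0 by DESeq2 (0.00476%). The series term was estimated within the S205A line only and does not separate series from line here. Against the 3 S205A controls of the 22 series the count was 0 (0% of all genes) and the median 0.21. Leaving out a library gave 1 to 4 calls (4 without control 1, where 9.21% of all genes passed, and 1 without control 2 or control 3, with 10.2% and 5.43%). The sign changed against those S205A controls for Col11a1 (0.50), Col14a1 (1.39) and Col28a1 (1.23), and with the series as a term for Col14a1 (0.18 by both tools). In the knockout 1 collagen passed by DESeq2 (1.02% of all genes) and 1 without a filter (0.821%), Col6a6 in both, and leaving out a library gave 0 to 1, the 1 being Col12a1 at −1.21 without WT 3 (0.0299%). Medians with a library left out ran from −0.20 to 0.08 in the knockout, −0.19 to −0.06 in Y198F and −0.16 to 0.16 in Y308F, so the sign of the knockout and Y308F medians rests on single libraries. The cause of these changes was not tested.

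Correlations of same-numbered libraries ran from −0.284 to 0.225, which does not settle whether the numbers pair them. With the replicate number as a block, the counts were 0 in the knockout, 2 in Y198F, 0 in S205A and 0 in Y308F, with an S205A median of 0.42, and no count changed. Depth limits what can be said of Col6a6 and Col8a2 in the S205A line, which lay under 5 CPM in every S205A library and had standard errors of 0.970 and 0.715.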

Other observations

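The chains of collagens I and III, and the pair Col4a1 and Col4a2, followed each other across libraries. Within the 9 libraries of the 22 series, log2 CPM of Col1a1 and Col1a2 gave Pearson's r = 0.992 (exact two-sided permutation p 5.51e-06) and Spearman's rho = 0.983 (exact permutation p 4.96e-05), and r = 0.978 without the 2 libraries farthest from the median of Col1a1. In the other 17 libraries r was 0.943 and rho 0.934 (both permutation p 1e-05, the smallest that 100000 permutations can give), and 0.915 without the 2 farthest. Over the 10 relations computed, the adjusted p of r was 2e-05 in both sets. Col1a1 and Col3a1, chains of different molecules, gave r = 0.978 (exact permutation p 5.51e-06) and rho = 0.983 (exact permutation p 4.96e-05) in the 9, 0.958 without the 2 farthest, and r = 0.938 and rho = 0.949 (both permutation p 1e-05) in the 17, 0.918 without the 2 farthest. Col4a1 and Col4a2 gave r = 0.954 (exact permutation p 5.79e-05, adjusted 9.65e-05) and rho = 0.917 (p 0.00131 by exact permutation) in the 9, 0.879 without the 2 farthest, and r = 0.971 and rho = 0.953 (both permutation p 1e-05) in the 17.

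Col5a2, which lies 16713 bases from Col3a1 on chromosome 1 on the other strand, followed Col1a1 less closely. In the 9 libraries r was 0.182 (exact permutation p 0.598) and rho 0.167 (exact permutation p 0.678), and 0.389 without the 2 farthest. In the 17 libraries r was 0.478 (permutation p 0.053, adjusted 0.0663) and rho 0.637 (permutation p 0.00686, adjusted 0.00857). Col1a1 and Col4a1 gave r = 0.563 (exact permutation p 0.115) in the 9 and 0.566 (permutation p 0.0192, adjusted 0.0274) in the 17. Libraries of several genotypes are pooled in each set, so group differences enter these values.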
